A study of Mus musculus with 16 samples.

Results

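Brd2, Brd3, Med1, Med12, Cdk7, Cdk8, Cdk9, Ccnt1 and Hexim1 encode general machinery that carries RNA polymerase II from a promoter into a gene. These 9 of the 21938 protein-coding genes on the mouse chromosomes were picked by name for their roles, with earlier results of these data known. ChIP-seq peaks were read from 3 peak lists. They were those within 3 kb of the genes' transcription start sites (TSSs), in the gene bodies and within 50 kb of a TSS. All tumours came from mice that carry a human EWSR1::ATF1 type 1 cDNA with a V5 tag and a linked green fluorescent protein marker at the Rosa26 locus, silent until Cre removes a stop cassette, on a mixed background of C57Bl/6 and another inbred strain. Expression was switched on by injecting TATCre protein into the hindlimb of 4-week-old mice, so any cell reached by the injection could express the fusion, and clear cell sarcoma (CCS) tumours formed there. EWSR1::ATF1, or EA1, is a fusion protein whose amino terminus comes from EWSR1 and whose bZIP DNA-binding domain comes from ATF1, of the ATF/CREB family. The RNAPOL2 antibody recognises the phosphorylated polymerase. The samples comprised 4 anti-V5, 4 anti-RNAPOL2, 4 anti-H3K27ac and 4 input samples of the same genotype and tissue, with no tumour that lacks the fusion among them.

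Transcription at a promoter proceeds through a series of handovers in which these genes take part. BET proteins bind acetylated histones and recruit elongation factors, Mediator bridges enhancer-bound factors and the polymerase, and its detachable kinase module contains CDK8 and MED12. CDK7, within TFIIH, phosphorylates the polymerase tail at initiation, and P-TEFb, made of CDK9 and cyclin T1, later releases the paused polymerase. HEXIM1 holds P-TEFb inactive together with 7SK RNA. Inhibitors of BET proteins, CDK7 and CDK9 have drawn interest in cancers driven by transcription factor fusions.

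The deposited lists contained 10665 V5, 20375 RNAPOL2 and 27552 H3K27ac peaks. Each peak carried a whole-number score from the peak caller, whose median was 230, 246 and 212 in that order. The scale of the score was not given, and comparisons of scores stay inside a list, by rank (1 is the highest) and by percentile, the share of peaks in the list with a lower score. Each antibody had 1 list with no values per tumour, so there was no replicate spread and no test. Depth could not be read from the lists. The V5 list was also smaller than the full set of EA1 sites the study described, so a gene without a V5 peak here can still be bound below the threshold of this list. Tumours hold several cell types, and the share of cells with a mark and its amount per cell cannot be told apart. As a check of the tissue, 2 of 6 melanocytic marker genes had promoter peaks in the RNAPOL2 list and 2 in the H3K27ac list, in each case Mitf and Pmel, while Sox10, Mlana and Tyr had none in any list. V5 was at 1 of the 6, Dct, which had neither RNAPOL2 nor H3K27ac at its promoter. H3K27ac marked promoters of 4 of 4 leukocyte markers and 0 of 5 muscle markers. RNAPOL2 was at 1 of 4 leukocyte and 1 of 5 muscle markers, and V5 at none of them, and the part of such cells in the values below was not tested.

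EA1 was found at the promoters of both BET genes and all 3 P-TEFb and 7SK genes, and at none of the Mediator and CDK7 genes. Thus, 5 of the 9 genes had a V5 promoter peak, namely Brd2, Brd3, Cdk9, Ccnt1 and Hexim1 (55.6%, Wilson 95% interval 26.7 to 81.1, which covers counting error only), against 16.6% of all protein-coding genes. RNAPOL2 and H3K27ac peaks were at all 9 promoters, against 53.5% and 58.6% of protein-coding genes. Consequently, the same 5 genes had promoter peaks in all 3 lists, against 15.9% of all genes. The nearer background for them is genes that also have RNAPOL2 and H3K27ac at their promoters, of which 30.4% (3484 of 11443) had a V5 peak. Widening the search to 50 kb added Med1 alone, so 6 of 9 genes had V5 in reach (66.7%, 35.4 to 87.9) against 41.3% of all genes.

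**Figure D1:**
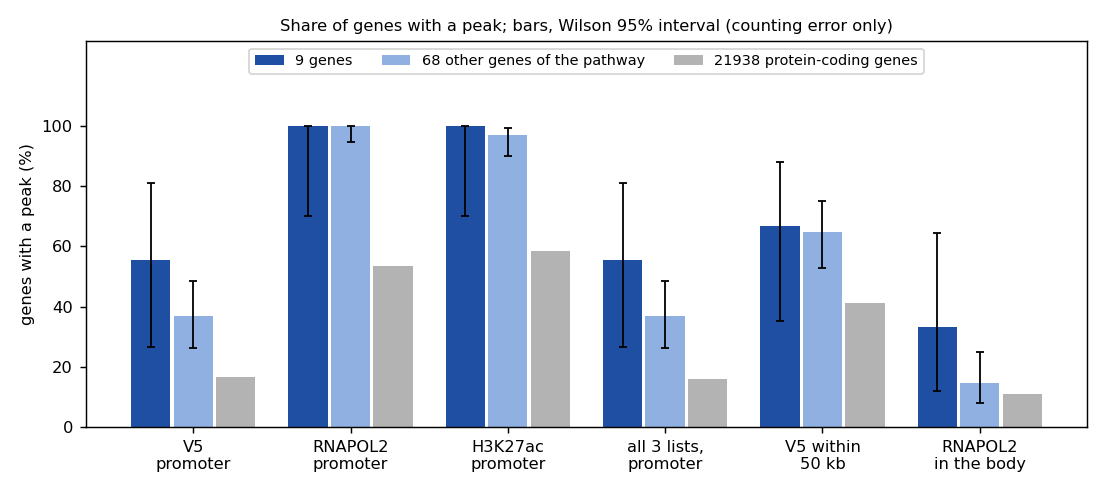
Share of genes with a peak (vertical axis, %) for the 9 genes, 68 other genes of the same pathway and all 21938 protein-coding genes, by list and region; error bars are Wilson 95% intervals and cover counting error only. RNAPOL2 was at 100% of promoters of the 9 genes and of the other pathway genes, and the V5 promoter share was 55.6%, 36.8% and 16.6% in that order.

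Peaks in the gene bodies, away from promoter windows, were fewer. No V5 or H3K27ac peak lay in the body of any of the 9 genes outside these windows, against 7.10% and 13.8% of protein-coding genes. RNAPOL2 peaks overlapped the body in this sense at Med1, Cdk9 and Hexim1, 3 of 9, against 11.2%. Only the 2 Med1 peaks lay inside their gene, since those of Cdk9 and Hexim1 overlapped it by 67 and 25 bp with their middles past the 3′ end. The count was 1 by peak middles and 0 when promoter windows reached 5 kb. Genes with more annotated starts also have more promoter windows. V5 promoter peaks were found at 7.46% of coding genes with 1 annotated TSS, 14.4% of those with 2 to 5 and 28.2% of those with over 5, a class that holds 7 of the 9 genes.

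The V5 peaks at these promoters were mostly weak, while RNAPOL2 and H3K27ac were strong. The highest V5 promoter scores of the 5 bound genes ran from 56 to 983 with a median of 67.0, compared with a median of 196 over the 3640 protein-coding genes with a V5 promoter peak. In the RNAPOL2 list the median of the 9 genes was 2096 against 912 over coding genes, and in the H3K27ac list it was 1418 against 863. The genes with and without V5 did not overlap in the other lists. The 5 genes with V5 had RNAPOL2 scores of 2096 to 10804 and H3K27ac scores of 1418 to 8376, whereas the 4 genes without it had 246 to 1673 and 346 to 1249.

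**Figure D2:**
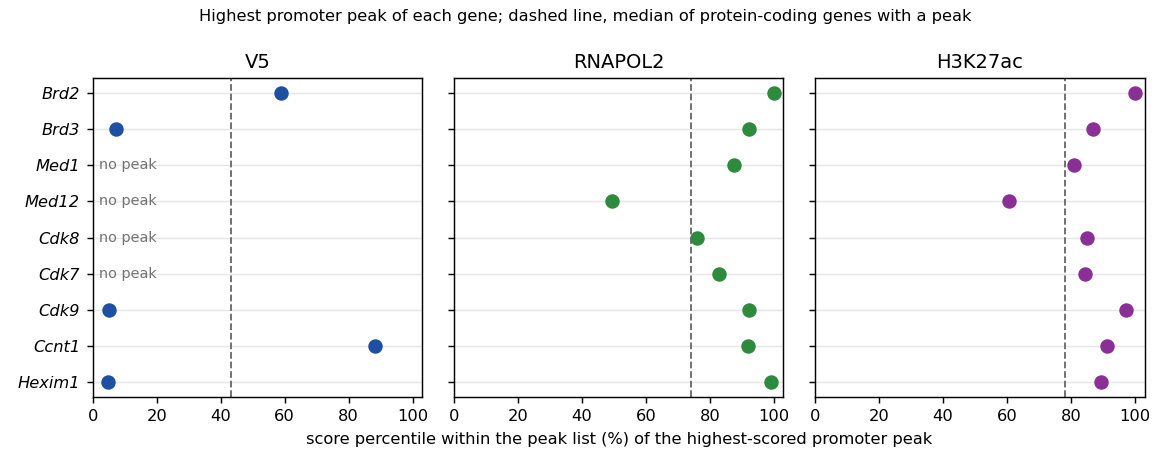
Score percentile within its list (horizontal axis, %) of the highest promoter peak of each of the 9 genes in the V5, RNAPOL2 and H3K27ac lists, with the median of protein-coding genes that have a peak as a dashed line. Brd2 was at 99.9 in both RNAPOL2 and H3K27ac, and only Ccnt1 and Brd2 passed the middle of the V5 list.

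The same order was seen more widely when the 11738 coding genes with an RNAPOL2 promoter peak, and separately the 12846 with an H3K27ac promoter peak, were divided into 4 nearly equal groups by score, a split made after the values of the 9 genes were seen and given as a description. V5 promoter peaks were found at 14.2%, 22.4%, 31.5% and 50.7% of genes from the lowest to the highest RNAPOL2 group. The highest group, which starts at a score of 1638, held Brd2, Brd3, Med1, Cdk9, Ccnt1 and Hexim1, and Med1 was the 1 of these 6 without a V5 peak. The median V5 score of bound genes went the other way, at 253, 265, 185 and 163. By H3K27ac score the V5 shares were 9.47%, 18.1%, 32.1% and 52.5%. Thus, among coding genes with an RNAPOL2 promoter peak, V5 peaks were more frequent but lower scored where RNAPOL2 scored high, and the 9 genes are not set apart by this.

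**Figure D3:**
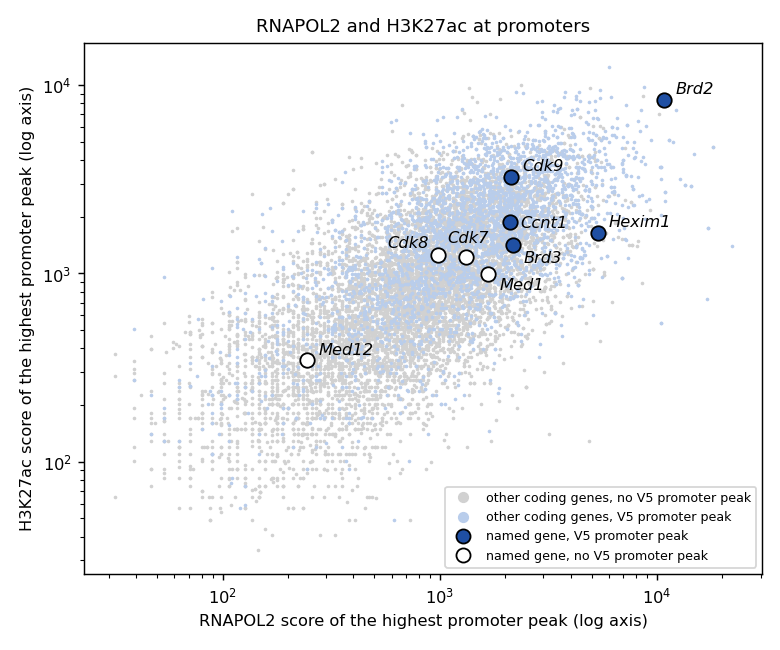
RNAPOL2 score (horizontal, log axis) against H3K27ac score (vertical, log axis) of the highest promoter peak for 11443 protein-coding genes with both, coloured by the presence of a V5 promoter peak; the 9 genes are named. Brd2 sits in the upper right at 10804 and 8376, Med12 in the lower left at 246 and 346.

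Brd2, a BET reader of acetylated histone tails, was the most heavily marked of the 9 genes. It spans chr17:34112023-34122634 on the minus strand (mm10) and has 19 annotated starts. An RNAPOL2 domain at chr17:34108961-34124020 covered 100% of the gene and ran past both ends. Its score of 10804 ranked 26 of 20375 peaks, and its width of 15060 bp ranked 79. Only 0.179% of coding genes with an RNAPOL2 promoter peak (21 of 11738) scored as high. H3K27ac covered the 5′ 57.0% of the gene, in a peak of 7640 bp that scored 8376 (rank 20), and 0.156% of genes (20 of 12846) reached that value. V5 by comparison was ordinary at Brd2. The higher of 2 V5 promoter peaks, at chr17:34119051-34120540, scored 288 (rank 4388, percentile 58.8) and covered the start of a non-coding Brd2 transcript. The other, at chr17:34120921-34122960, scored 84 (rank 9095) and covered 6 Brd2 starts, 3 of them of coding transcripts. Another V5 peak, 12627 bp from the nearest Brd2 start at chr17:34135261-34135830, scored 313 and lay over a start of H2-DMa. The plus-strand gene H2-DMa has alternative starts within both Brd2 promoter peaks, and an antisense gene, CR974462.3, starts within the RNAPOL2 and H3K27ac peaks, so the peaks could not be assigned to Brd2 alone.

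Brd2 was the only 1 of the 5 genes whose V5 peak held the full palindrome TGACGTCA, the site bound by ATF/CREB dimers. It lay at chr17:34119525-34119532, 266 bp from the middle of the higher peak. The lower peak held a copy of the AP-1 word TGAGTCA (as TGACTCA on the gene's strand) at chr17:34121273-34121279, 664 bp from its middle. These words are shown in capitals with 10 bases on each side, on the strand of the gene, because they are the only full sites found in these promoters.
Brd2 palindrome: ctggagtttgTGACGTCAtccttcgagc
Brd2 AP-1 word: gcctcccctgTGACTCAtgtgggggca

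The motifs searched on both strands in the 6 V5 promoter peaks of these genes were TGACGTCA, its relaxed form TGANNTCA with any other centre, TGAGTCA, and the 5-base core TGACG, which the palindrome also contains. The palindrome and TGAGTCA were each found in 1 of 6 peaks, TGANNTCA in 0, and TGACG in 5, the exception being Brd3. Over all 4330 V5 promoter peaks, 12.9% held TGACGTCA, 26.9% TGANNTCA, 16.4% TGAGTCA and 77.9% TGACG at some place in the peak. Within the central 500 bp, the 6 peaks held none of the 3 longer motifs and 5 held TGACG, compared with 69.3% of all V5 promoter peaks for TGACG. The longer motifs are uncommon there in general, in 11.2% (TGACGTCA), 18.7% (TGANNTCA) and 11.0% (TGAGTCA) of all V5 promoter peaks, so their absence from 6 peaks is not a result about these genes. A match is a string of letters and not a shown binding site.

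Brd3, the other BET gene of the set, spans chr2:27445579-27507662 on the minus strand, and all its promoter peaks lay deep inside the annotated gene. The V5 peak at chr2:27475301-27475880 scored 67 (rank 9681, percentile 7.29) and covered 6 starts, 5 of them of coding transcripts, with its middle 32072 bp downstream of the most upstream annotated start. RNAPOL2 there scored 2173 (rank 1545) and H3K27ac 1418 (rank 3557). No peak of any list overlapped the promoter window of the most upstream start, and the internal start under the peaks is also the RefSeq start. The RefSeq promoter window (GRCm38.p6, chr2:27475349-27475648, minus strand, from 250 bases before to 50 after the start) is 75.0% G and C and held none of the motifs searched here. It is printed because the Brd3 V5 peak was the only one of the 6 without any of these words over its whole length. The RefSeq windows of Cdk9 and Hexim1 also held none, although their V5 peaks held TGACG.
Brd3 promoter: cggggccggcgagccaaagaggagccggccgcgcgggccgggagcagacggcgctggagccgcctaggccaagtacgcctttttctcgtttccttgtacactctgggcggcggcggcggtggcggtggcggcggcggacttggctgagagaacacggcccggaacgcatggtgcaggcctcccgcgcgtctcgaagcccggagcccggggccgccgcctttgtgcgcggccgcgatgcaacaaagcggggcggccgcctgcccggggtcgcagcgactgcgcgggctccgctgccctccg

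The V5 peaks of Brd3 and Cdk9 were the richest in G and C of the set, at 77.9% and 76.3%, with scores of 67 and 59. The other 4 promoter peaks held 60.3% to 67.6%, compared with a median of 59.7% over all V5 promoter peaks. Hexim1, with the lowest score of 56, was also the lowest in G and C at 60.3%, so G and C content and V5 score did not go together in a simple order.

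Ccnt1 had the strongest EA1 peak of the 9 genes. It encodes cyclin T1, the regulatory subunit of P-TEFb, and spans chr15:98538689-98570923 on the minus strand. The V5 peak at chr15:98567211-98568230 scored 983 (rank 1265, percentile 88.1), and 13.7% of coding genes with a V5 promoter peak (498 of 3640) scored as high. RNAPOL2 scored 2096 (rank 1671) and H3K27ac 1869 (rank 2392) over the same start region. The peak also covers the start of the antisense gene 9330020H09Rik and lies 2774 bp from the start of the plus-strand coding gene 4930415O20Rik, inside its promoter window, so its assignment is shared. A weaker V5 peak, 29770 bp from the nearest Ccnt1 start in intergenic DNA at chr15:98512731-98513250, scored 271 and overlapped H3K27ac (score 215) but no RNAPOL2 peak. The V5 promoter peak held 3 TGACG words, at 15, 34 and 212 bp from its middle. The RefSeq window (GRCm38.p6, chr15:98567687-98567986, minus strand) contains 2 of them, in capitals as CGTCA, the reverse complement, with first bases at -198 and -1 relative to the start. It is printed because it carries the highest-scored V5 peak of the set with no palindrome.
Ccnt1 promoter: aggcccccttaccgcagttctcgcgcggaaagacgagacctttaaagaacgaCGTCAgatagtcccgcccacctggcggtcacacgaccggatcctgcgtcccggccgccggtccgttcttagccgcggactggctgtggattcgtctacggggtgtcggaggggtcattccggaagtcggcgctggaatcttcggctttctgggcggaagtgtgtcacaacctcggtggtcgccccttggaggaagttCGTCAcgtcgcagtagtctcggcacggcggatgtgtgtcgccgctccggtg

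Cdk9, the kinase of P-TEFb, had a marginal V5 peak beside strong acetylation. The gene lies at chr2:32705784-32713076 on the minus strand. V5 scored 59 at chr2:32712841-32713490 (rank 9952, percentile 5.07), covering the start of a non-coding Cdk9 transcript and the microRNA genes Mir2861 and Mir3960. H3K27ac spanned 4390 bp with a score of 3259 (rank 726), a value reached by 6.55% of coding genes with an H3K27ac promoter peak. RNAPOL2 scored 2137 (rank 1586). Stitching H3K27ac peaks that lie within 12 kb of each other placed Cdk9 in a region of 17.0 kb with 3 peaks and 1 V5 peak.

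Hexim1, the inhibitor that sequesters P-TEFb, combined the lowest V5 score of the bound genes with an RNAPOL2 score exceeded in the set by Brd2 alone. The gene is short, at chr11:103116231-103119725 on the plus strand, with 1 annotated start. RNAPOL2 formed a domain of 7370 bp (chr11:103111741-103119110) that covered 83.1% of the gene, scored 5359 and ranked 165, and 1.50% of coding genes (176 of 11738) scored as high. H3K27ac scored 1645 (rank 2917) and covered 54.1%. The V5 peak at chr11:103116141-103116760 scored 56 (rank 10140, percentile 4.85), and 91.7% of coding genes with a V5 promoter peak scored as high. Hexim1 had 2 further V5 peaks within 50 kb, in an intron of Acbd4 (score 65) and in an intron of the paralogue Hexim2 (score 141, 16420 bp away). Both lay in the promoter windows of these neighbours and were the highest V5 promoter peaks of Acbd4 and Hexim2. The Hexim2 peak lay within an RNAPOL2 promoter peak scored 4825 (rank 236) and an H3K27ac promoter peak scored 7216 (rank 40). The stitched H3K27ac region at Hexim1 was the widest of the set, 33.9 kb with 5 peaks and 2 V5 peaks, in a genome where 15.1% of stitched regions (2450 of 16205) held 3 or more peaks.

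The TGACG words nearest to the V5 peak middles at the P-TEFb and 7SK genes are shown beside words from promoters without V5. The windows searched differ, being whole V5 peaks for the former and RefSeq windows of 300 bases for the latter. The nearest word was 15 bp from the middle of the peak at Ccnt1, 101 bp at Hexim1 and 234 bp at Cdk9, in capitals on the strand of the gene. The Cdk8 and Cdk7 words begin at -170 and -220 relative to the RefSeq starts, under RNAPOL2 and H3K27ac peaks but no V5 peak. The RefSeq windows of Cdk9 and Hexim1 held no TGACG, nor did those of Med1 and Med12, which also lack V5.
Ccnt1: ggaggaagttCGTCAcgtcgcagta
Hexim1: tccgaggcagCGTCAtcgggtagtt
Cdk9: ctgcgagcagTGACGcgccgagggc
Cdk8, no V5: cgcctgccggCGTCAgaagagacgg
Cdk7, no V5: agaaataccaCGTCAgaaccctggc
Across 32851 RefSeq promoter windows of 300 bases, 20.8% held TGACG and 1.79% the palindrome, so the short word by itself is common at promoters. All 9 genes matched a RefSeq window.

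**Figure D4:**
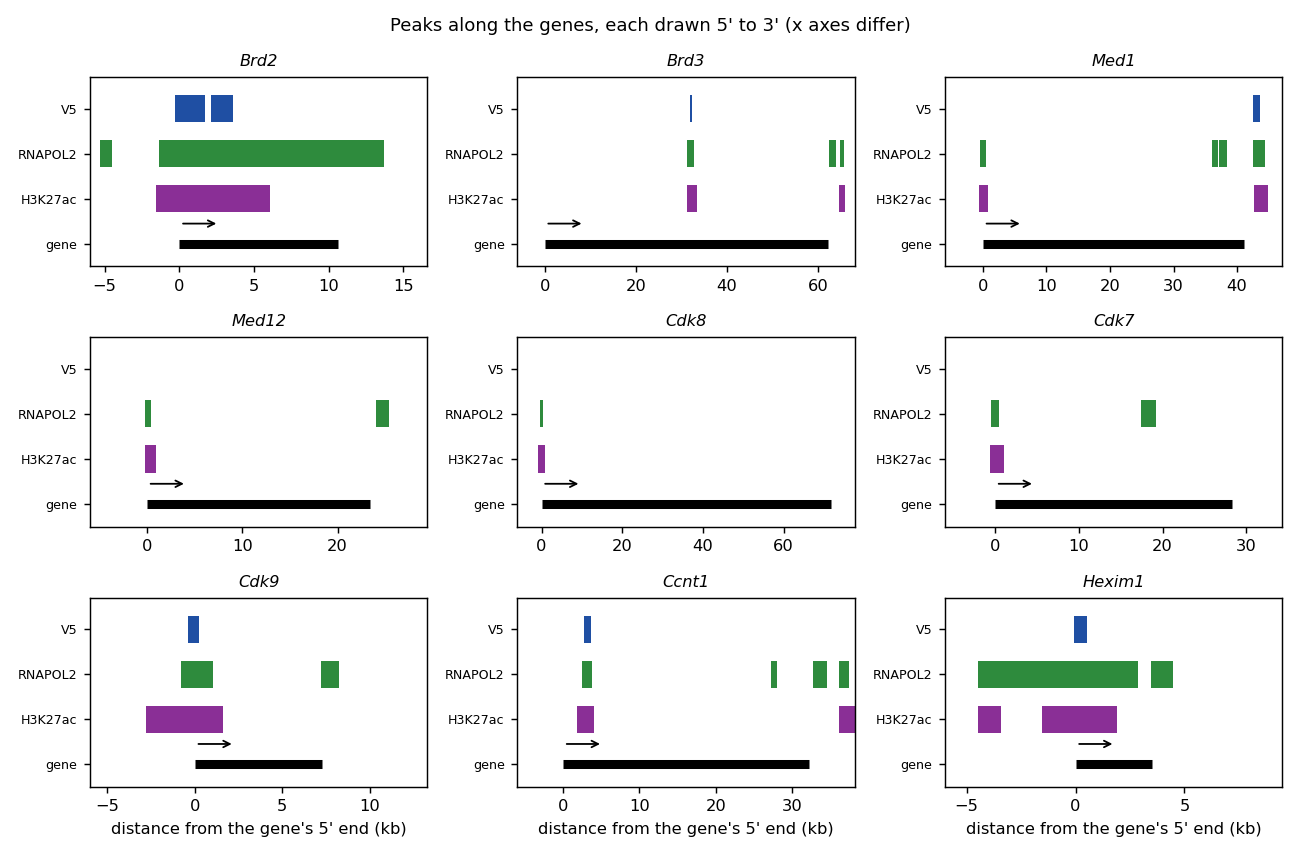
Peaks of the 3 lists around each of the 9 genes, by distance (kb) from the most upstream annotated start in the direction of transcription, with an axis of its own for each gene; coloured boxes are peaks, the black bar is the gene and the arrow its direction. The RNAPOL2 domain of Brd2 covers the gene from end to end, and at Brd3 the promoter peaks stand inside the annotated gene.

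Med1, the Mediator subunit through which nuclear receptors and many activators contact the complex, had no V5 promoter peak. It spans chr11:98152154-98193293 on the minus strand. RNAPOL2 at its start scored 1673 (rank 2488, percentile 87.7) and H3K27ac 992 (rank 5231, percentile 80.8). The nearest V5 peak, 10182 bp from the closest Med1 start at chr11:98149631-98150840, scored 169 and covered a start of the neighbouring gene Fbxl20. On its other side, 8778 bp upstream, RNAPOL2 at the promoter of Cdk12, an elongation kinase gene, scored 3748 and H3K27ac 5882 (rank 88), more than at Med1 itself. The stitched H3K27ac region of Med1 was 12.2 kb wide and joined these promoters.

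The kinase module genes of the set, Med12 and Cdk8, had no V5 peak within 50 kb. Med12, which activates CDK8 within the module, lies at chrX:101274030-101297465 on the plus strand and had the lowest scores of the set, with RNAPOL2 at 246 (rank 10181, percentile 49.5) and H3K27ac at 346 (rank 10725, percentile 60.5). Among coding genes with an RNAPOL2 promoter peak, 87.6% scored as high as Med12. Its nearest V5 peak was 1052.8 kb away, in an intron of Hdac8. Genes on the X chromosome had V5 promoter peaks at 27 of 269 of those with RNAPOL2 and H3K27ac at the promoter, against 30.9% on the autosomes, and the part of this in the Med12 values was not tested. Cdk8, the kinase of the module, lies at chr5:146231230-146302874 on the plus strand and scored 983 for RNAPOL2 (rank 4893) and 1249 for H3K27ac (rank 4139), near the middle of coding genes. Its nearest V5 peak was intergenic and 83.5 kb away.

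Cdk7, the kinase of the TFIIH-associated CAK complex, had a promoter much like that of Cdk8. It lies at chr13:100702631-100730939 on the minus strand, with RNAPOL2 at 1315 (rank 3482, percentile 82.8) and H3K27ac at 1218 (rank 4224, percentile 84.5). A further RNAPOL2 peak, of 1850 bp and score 89, covered the internal start of a non-coding Cdk7 transcript and had no H3K27ac. The nearest V5 peak was 60.2 kb away at Ak6, with a score of 579.

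Near the 3′ ends, 6 of the 9 genes had RNAPOL2 peaks without H3K27ac with their middles within 5 kb of the end, on either side. This compares with 13.6% of all protein-coding genes and 24.0% of those with an RNAPOL2 promoter peak, in a count made after the peaks were seen. They were Brd3 (score 54), Med1 (63 and 89), Med12 (157), Cdk9 (47), Ccnt1 (80 and 63) and Hexim1 (54), all low in the list. The peaks of Med1, Cdk9 and Hexim1 are those counted above as body peaks. Both Med1 peaks lie inside the gene, before its end. The Med12 peak also covers starts of Nlgn3, its neighbour, and the Ccnt1 peak scored 63 covers an internal start of a non-coding Ccnt1 transcript. At Brd2 the promoter domain itself reached past the 3′ end, whereas Cdk8 and Cdk7 had no such peak.

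The other 68 genes of the pathway showed how the 9 compare with their partners. V5 promoter peaks were at 25 of 68 (36.8%, 26.3 to 48.6), against 16.6% of all coding genes and 30.4% of those with RNAPOL2 and H3K27ac promoter peaks, so this share was near that of marked promoters. RNAPOL2 was at 68 of 68 and H3K27ac at 66 (against 53.5% and 58.6%), Med24 and Ell3 being without H3K27ac. Med29 and Paf1 share 1 V5 peak, counted for each. V5 lay within 50 kb of 44 of them (64.7%, against 41.3%). The V5 scores of the bound partners had a median of 645 against 67.0 in the 9 genes, but were widely spread, and 11 of the 25 scored 76 to 202, below the median of the V5 list (230), as did 3 of the 5 bound genes of the set. The highest were at Nelfa, a subunit of the pausing factor NELF (3072, rank 222), Med20, a Mediator head subunit (2999, rank 235), and Gtf2h3, a TFIIH subunit (2297, rank 360). The partners scored lower for RNAPOL2 (median 1059) and H3K27ac (median 992) than the 9 genes.

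By complex, counting the 9 genes with their partners, V5 was at 5 of 7 P-TEFb and 7SK genes. These were Cdk9, Ccnt1, Hexim1, Hexim2 and Larp7, of which Larp7, a 7SK-binding protein gene, scored highest (1645, rank 614). It was at 2 of 3 BET genes, with none at Brdt, 7 of 15 pause and elongation factor genes and 4 of 9 genes of the super elongation complex. Mediator head, middle and tail genes had V5 at 8 of 26 promoters, CAK and TFIIH genes at 3 of 10, and the kinase module at 1 of 7, which was Med13l with a score of 84. The background is the same 30.4% of marked promoters, and the shares of the Mediator head, middle and tail genes (30.8%) and the CAK and TFIIH genes (30.0%) lie at it. The counts were not tested against each other.

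**Figure D5:**
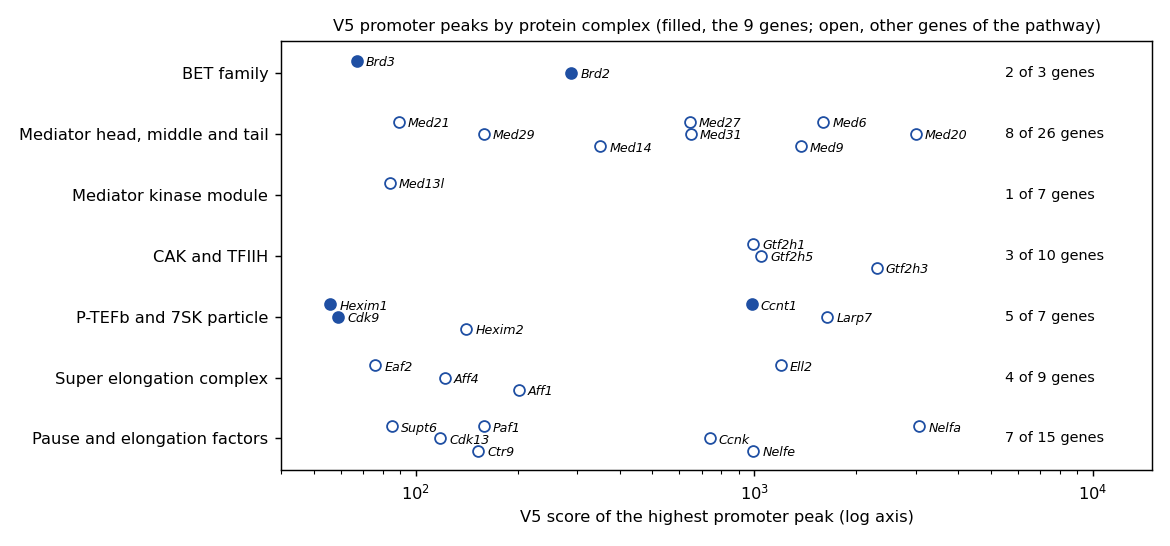
V5 score of the highest promoter peak (log axis) of each gene in the pathway, by complex, with the 9 genes as filled and other pathway genes as open circles; the count at the right gives genes with a V5 promoter peak of all genes in the complex. Among the 9 genes Ccnt1 is highest at 983, while Nelfa reaches 3072 among the others.

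Each of the 9 genes was also set beside the partner with the most similar percentiles over the 3 lists, as Euclidean distance in percentile points with a missing peak at 0. Cdk8 was closest to Ell (2.05 points) and Cdk7 to Cdk19, the paralogue of CDK8 (3.32). Cdk9 was closest to Mepce, the 7SK capping enzyme gene (5.35), Med1 to Gtf2h4 (6.47) and Ccnt1 to Ell2 (7.02). Brd3 was nearest to Supt5 (7.61), Med12 to Med18 (8.87) and Hexim1 to Med22 (8.88). Brd2 had no close counterpart in the pathway, with Aff1 nearest at 15.8 points. Supt5, Mepce and Med22 had no V5 promoter peak, so low-scored V5 peaks and absent ones are near each other on this scale.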

How the data were processed

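Tumours were cross-linked, immunoprecipitated with antibodies to V5, RNAPOL2 or H3K27ac, and sequenced as read pairs. The authors aligned reads to mm10 with BWA 0.7.10-r789 and found peaks with MACS2 2.2.6 against input, using the broad setting for H3K27ac, and removed denylisted regions. The deposited files hold 1 peak list per antibody with a whole-number score in the fifth column, whose scale is not given in the sources used here, and no values per sample. The study's methods name more V5 and RNAPOL2 samples than the labels used here, and which samples entered each list is not given in the sources used here.

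A promoter peak overlapped by at least 1 bp a window within 3 kb of any GENCODE vM21 TSS (mm10), and the highest-scored one stood for the gene. Peaks in bodies and within 50 kb, 12 kb stitching, motifs and distances were computed with Python 3.11.15, numpy 2.4.6, pysam 0.24.0 and scipy 1.17.1, and figures with matplotlib 3.10.9. Simulated peaks with known answers were used to check the functions. Named genes were the 9 genes, the 3 partners with the highest V5 promoter scores, partners lacking RNAPOL2 or H3K27ac, and each gene's nearest partner. Other genes are named as neighbours or were chosen after their values were seen. The members and lists were chosen with earlier results of these data known. Wilson intervals cover counting error only. Depth was not in the lists. Alternatives changed the promoter window, the TSSs used, the score threshold, the distance and the overlap rule. Those for RNAPOL2 and H3K27ac in gene bodies were added after seeing the data.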

Additional observations from a re-analysis of the deposited data

How the results depend on the processing

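The counts of promoter peaks kept the same genes when the promoter window was 1 or 5 kb, when only starts of protein-coding transcripts were used, and when the middle base of a peak had to lie in the window, apart from the pathway count, which ran from 24 to 26. Of 46 recomputed counts, 39 stayed within 1.5 times the reported value and 7 did not. Of these, 3 concern RNAPOL2 in gene bodies, in alternatives chosen after seeing the data: from 3 genes the count fell to 0 with 5 kb promoter windows, to 0 with the upper 50% of the list and to 1 by peak middles. The other 4 came from keeping the upper 50% of each list by score. The 9 genes then had V5 promoter peaks at 2 (Brd2 and Ccnt1, against 7.30% of coding genes), promoter peaks of all 3 lists at 2 (6.38%) and V5 within 50 kb at 2 (24.4%), and the pathway genes had V5 at 14 (7.30%). The V5 peaks of Brd3, Cdk9 and Hexim1 score below the middle of their list, which is how this alternative removes them. With the 5′ end of each gene as its only start, Brd3 lost its promoter peaks, leaving V5 at 4 and RNAPOL2 and H3K27ac at 8 of 9. V5 within 100 kb was at 8 of 9 (56.0% of coding genes). No paired analysis was possible because each antibody has 1 list without values per sample, and for the same reason leaving out replicates could not be run. Depth per library is unknown, which limits what an absent peak means.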
